A study of Mus musculus with 27 samples.

Results

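Transcripts of Tmem176a and Tmem176b, and of 8 genes of the Ms4a family (Ms4a4a, Ms4a4b, Ms4a4c, Ms4a6b, Ms4a6c, Ms4a6d, Ms4a7 and Ms4a8a), were followed in bone marrow-derived macrophages exposed to a medium conditioned by malignant peripheral nerve sheath tumor cells (MPNST-CM). These 10 members are 10 of the 50559 gene rows of the count table. They were selected on their measured levels across the 8 groups of these same libraries, so that their levels and differences between groups are given as a description, without p-values. TMEM176A and TMEM176B are membrane proteins of the endosomal and lysosomal compartment of antigen-presenting cells, where they behave as cation channels, and TMEM176B is known as a brake on inflammasome activation. MS4A proteins cross the membrane several times and often sit beside immune receptors: CD20 of B cells and the beta chain of the high-affinity IgE receptor are the founders of the family. In macrophages MS4A4A is known as a surface protein of alternatively activated cells that associates with the beta-glucan receptor Dectin-1, and MS4A7 is a marker of several tissue macrophages, microglia-like cells and tumor-associated macrophages among them.

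Bone marrow cells came from female C57BL/6 mice, 3 to 4 months old, that were either wild type (WT) or deficient for the mitochondrial chaperone TRAP1 (TRAP1 KO). Unpolarized macrophages (Mφ, labelled M0) and M2-like macrophages, which had received IL-4 at 10 ng/ml for 24 h, were then kept for 48 h in control medium (DMEM) or in MPNST-CM. The crossing of genotype, IL-4 and medium gives 8 groups, each with 3 libraries in batch 1. The labels do not state whether the libraries of a group came from separate animals, so the spread between them may be technical, and MPNST-CM is medium taken from cultured tumor cells, so the tumor is represented by what these cells release. Levels are given as CPM, the reads of a gene scaled to the library's total, after TMM scaling, the trimmed mean of M-values that evens out the libraries' composition. In the following, a gene is called higher or lower in a comparison when its edgeR quasi-likelihood test, adjusted over all 13614 genes tested in the 24 batch 1 libraries, fell under 0.05.

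The 24 libraries of batch 1 held 7037684 to 9089792 counts, so that the floor of 3 counts corresponded to 0.323 to 0.451 CPM. Libraries of a group differed by more than counting error, at a chi-square per degree of freedom of 2.11 to 37.4 over 24 pairs. Trap1 had 83 to 144 counts in the 12 WT libraries and 0 counts in the 12 TRAP1 KO libraries. Xist, which is expressed from the inactive X chromosome, had 2079 to 4010 counts in the WT libraries but at most 9 in the TRAP1 KO libraries, and none of 4 Y-linked genes exceeded 2 counts in either genotype. TRAP1 deficiency and this difference in Xist cannot be told apart in batch 1. All 7 macrophage markers were detected in all groups, with a summed level between 7830 and 12100 CPM. Batch 2 holds 3 more libraries, which were kept out of all values unless stated. Of these, the library labelled TRAP1 KO M2 in MPNST-CM was nearest to WT M2 in control medium, at a rank correlation over genes of 0.983 against 0.949 for its labelled group. The library labelled TRAP1 KO M2 in control medium was nearest to TRAP1 KO Mφ in MPNST-CM, at 0.97 against 0.914.

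The upstream sequences of the members are shown first, because several members share bases there. RefSeq (GRCm38.p6) gave start sites for 9 of the 10 members, in 13 windows of 250 bases upstream of a start, and none for Ms4a6d. Tmem176a and Tmem176b lie head to head on chromosome 6, and the first windows of these genes share 108 bases, read on opposite strands. The first window of Tmem176a (chr6:48841233-48841482, plus strand, 59.6% GC against a median of 52.4% over all windows) therefore holds the stretch between both starts. Capitals mark matches, on either strand, of AGGAAGT (an ETS-like motif), GAGGAA (a PU.1-like motif) or GAAANNGAA (a motif like the interferon-stimulated response element).

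Tmem176a: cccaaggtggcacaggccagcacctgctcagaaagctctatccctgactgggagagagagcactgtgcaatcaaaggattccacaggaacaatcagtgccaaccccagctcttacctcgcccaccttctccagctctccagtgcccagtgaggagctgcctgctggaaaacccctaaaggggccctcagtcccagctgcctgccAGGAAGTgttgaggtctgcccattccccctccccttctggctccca

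Ms4a4b and Ms4a4c both lie on chromosome 19. Their windows (Ms4a4b chr19:11443308-11443557, Ms4a4c chr19:11407411-11407660, both plus strand) could be aligned over 251 columns with 71.3% identity, and both hold GAGGAA within the same run of letters.

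Ms4a4b: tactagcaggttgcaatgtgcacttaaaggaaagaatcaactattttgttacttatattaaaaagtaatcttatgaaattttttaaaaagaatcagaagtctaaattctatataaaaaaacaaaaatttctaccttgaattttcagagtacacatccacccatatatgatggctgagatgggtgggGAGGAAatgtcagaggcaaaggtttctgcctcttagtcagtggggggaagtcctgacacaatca

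Ms4a4c: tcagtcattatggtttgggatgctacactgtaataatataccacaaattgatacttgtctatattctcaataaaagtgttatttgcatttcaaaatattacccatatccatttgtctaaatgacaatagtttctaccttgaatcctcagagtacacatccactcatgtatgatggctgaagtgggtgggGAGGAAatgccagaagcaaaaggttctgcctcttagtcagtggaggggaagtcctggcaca

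The windows of Ms4a6b and Ms4a6c lie on the same strand (Ms4a6b chr19:11518309-11518558, Ms4a6c chr19:11469118-11469367). Their windows could be aligned over 182 columns with 81.9% identity and share an identical run of 48 bases that holds AGGAAGT, against 20 bases for Ms4a4b with Ms4a4c and 7 to 9 bases in the 19 other pairs of Ms4a windows.

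Ms4a6b: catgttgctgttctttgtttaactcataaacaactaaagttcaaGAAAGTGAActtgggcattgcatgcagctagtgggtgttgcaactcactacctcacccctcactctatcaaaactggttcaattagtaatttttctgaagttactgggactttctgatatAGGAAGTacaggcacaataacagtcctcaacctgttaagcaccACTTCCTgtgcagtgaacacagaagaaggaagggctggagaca

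Ms4a6c: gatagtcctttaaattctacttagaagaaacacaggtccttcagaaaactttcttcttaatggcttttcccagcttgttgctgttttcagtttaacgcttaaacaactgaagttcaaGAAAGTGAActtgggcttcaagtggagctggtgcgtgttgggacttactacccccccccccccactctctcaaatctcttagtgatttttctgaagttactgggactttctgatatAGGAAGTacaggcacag

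Among the 32851 RefSeq windows of this length, 7.69% hold AGGAAGT, 23.3% hold GAGGAA and 7.13% hold GAAANNGAA on either strand. AGGAAGT was found in windows of Tmem176a, Tmem176b, Ms4a6b and Ms4a6c. For the Tmem176 pair this is the same site read on opposite strands, and Ms4a6b and Ms4a6c share a match in their identical run. GAGGAA was found in windows of Tmem176a (the second one, not shown), Tmem176b, Ms4a4b and Ms4a4c, and GAAANNGAA in those of Ms4a6b, Ms4a6c and Ms4a7. The GAGGAA matches of the Tmem176 pair are again the same sites, so members with a motif are not independent of each other. The STAT6-like motif, TTC and GAA with 4 bases between, which 5.85% of all windows hold, was found in a window of Ms4a7, and the STAT-like motif with 3 bases between, in 7.02% of windows, in none. ACGTG or GCGTG, the core that HIF proteins bind, occurs in 38.6% of all windows and was found in the window of Ms4a6c. The motifs overlap in part, the list was completed with the sequences in view, and a match is a description of the letters.

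Since copies can also compete for reads, stretches of 75 bases, the read length, were compared between the GENCODE vM21 transcripts (GRCm38) of each member and those of all other genes. No such stretch of Tmem176a, Tmem176b, Ms4a4a, Ms4a7 or Ms4a8a occurred in another gene. The share was 1.18% for Ms4a4b, 3.78% for Ms4a4c, 0.632% for Ms4a6b, 2.88% for Ms4a6c and 0.408% for Ms4a6d, shared with 1 or 2 other genes that are named Ms4a except for Prdm11 in the case of Ms4a6c. Reads came from the 3′ end of the transcripts. In their last 500 bases, 46 of 1938 stretches of Ms4a4b and 58 of 1139 of Ms4a4c were shared. There 7 of 1572 stretches of Ms4a6b and 22 of 852 of Ms4a6c were shared too. A small part of the reads of these copies is therefore uncertain.

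Tmem176a and Tmem176b were lower in MPNST-CM than in control medium in every combination of genotype and IL-4, and the spread of the libraries did not overlap. In WT Mφ, Tmem176b was at 69.2, 69.6 and 67.6 CPM in control medium and at 11.9, 13.4 and 7.55 CPM in MPNST-CM. In TRAP1 KO Mφ it was at 150.2, 168 and 192 CPM in control medium and at 4.62, 4.50 and 5.86 CPM in MPNST-CM. The KO libraries therefore stood above the WT libraries in control medium and below them in MPNST-CM. In M2 macrophages Tmem176b was at 73.8, 63.3 and 69.8 CPM in WT and at 58.8, 56.0 and 51.6 CPM in TRAP1 KO cells in control medium. In MPNST-CM the M2 libraries had 5.41, 8.17 and 8.81 CPM in WT and 2.78, 1.24 and 1.52 CPM in TRAP1 KO cells, the lowest group of all. In bulk RNA, fewer cells that express a gene and less RNA per cell cannot be told apart.

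Expressed as fold change, Tmem176b was 6.29-fold lower in MPNST-CM in WT Mφ (log2 fold change -2.65, standard error 0.17), 34-fold lower in TRAP1 KO Mφ (-5.09 ± 0.19 standard error), 9.22-fold lower in WT M2 (-3.20 ± 0.18) and 30.3-fold lower in TRAP1 KO M2 (-4.92 ± 0.22). Tmem176a, with fewer counts (5 to 357 per library), went the same way: 14.8, 14.5 and 15.04 CPM in WT Mφ in control medium against 2.90, 1.61 and 2.05 CPM in MPNST-CM, and 38.4, 38.9 and 46.95 CPM against 1.25, 1.22 and 0.892 CPM in TRAP1 KO Mφ. These are falls of 6.73-fold and 36.4-fold. In M2 macrophages Tmem176a fell 11.9-fold in WT and 14.2-fold in TRAP1 KO cells. Across the 8 groups its mean ran from 41.4 CPM in TRAP1 KO Mφ in control medium to 0.944 CPM in TRAP1 KO M2 in MPNST-CM, and all 4 groups in control medium stood above all 4 groups in MPNST-CM. Within the control groups the order was TRAP1 KO Mφ, WT M2, WT Mφ and TRAP1 KO M2 for both genes, although WT M2 and WT Mφ overlapped for Tmem176b.

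**Figure D1:**
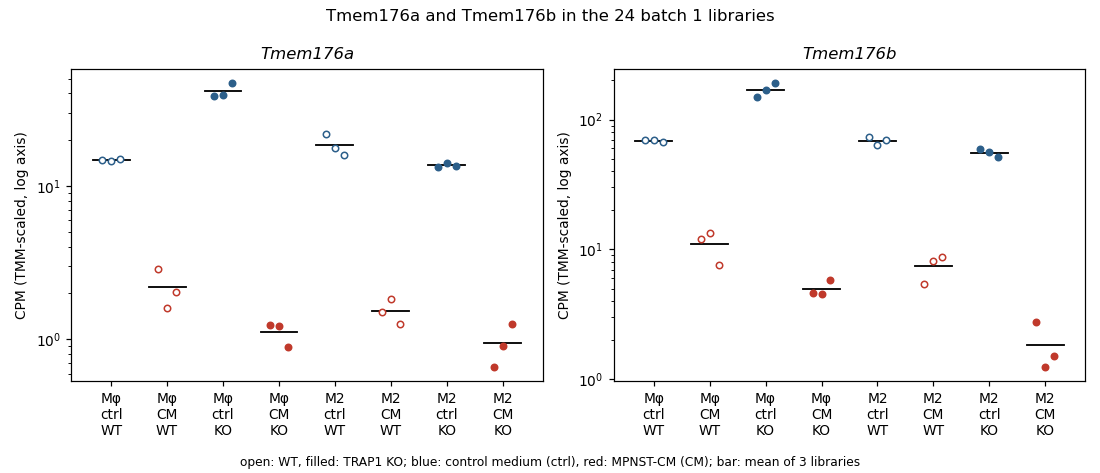
CPM of Tmem176a and Tmem176b (log axis) in each of the 24 batch 1 libraries by group, with open points for WT, filled points for TRAP1 KO, blue for control medium, red for MPNST-CM and a bar at the mean of 3 libraries. All 12 libraries in MPNST-CM lie below all 12 in control medium for both genes, and TRAP1 KO Mφ in control medium are highest, at 41.4 and 170.1 CPM.

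The pair kept a similar proportion as group means in most groups, with a wider spread between libraries in MPNST-CM. The counts of Tmem176b were 3.78 to 5.36 times those of Tmem176a as group means in 7 groups and 2.26 times in TRAP1 KO M2 in MPNST-CM, where the libraries ran from 1.2 to 4.2 on 5 to 10 counts of Tmem176a. In the other groups in MPNST-CM the libraries ran from 3.68 to 8.29 in WT Mφ, 3.7 to 6.57 in TRAP1 KO Mφ and 3.58 to 7 in WT M2. In a 3′ library each transcript gives about 1 fragment, so counts were not divided by length. Over the 24 libraries the log2 CPM of both genes had a Pearson correlation of 0.967, a description over libraries that share their groups.

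IL-4 was compared within each genotype. In control medium, M2 macrophages differed little from Mφ in WT, with log2 fold changes of 0.0034 ± 0.15 (standard error) for Tmem176b and 0.32 ± 0.15 for Tmem176a, neither of which was called. In TRAP1 KO cells both were lower in M2 than in Mφ, by 3.07-fold and 3.04-fold. The KO cells had 2.47-fold more Tmem176b and 2.80-fold more Tmem176a than WT in Mφ in control medium, and 2.19-fold and 1.93-fold less in Mφ in MPNST-CM. In M2 macrophages in MPNST-CM Tmem176b was 4.08-fold lower in TRAP1 KO cells, while Tmem176a, at 1.26 to 1.83 CPM in WT and 0.661 to 1.27 CPM in KO libraries, was not called. The call of Tmem176a in Mφ in MPNST-CM (log2 fold change -0.95) was lost without WT replicate 1 (-0.71) or without KO replicate 3 (-0.82). In MPNST-CM, Tmem176b was called 1.46-fold lower in WT M2 than in WT Mφ although the libraries overlapped, and that call was lost without replicate 1 or 2 of either group, with log2 fold changes of -0.33 to -0.62.

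Both TMEM176 proteins are known from cells that present antigen, and the genes of MHC class II presentation were read beside them as a list of 11 genes, chosen with results of these data known. The adjusted p-values printed for genes of this list are therefore a description and no independent test. Of the 10 that could be tested, 8 were lower in MPNST-CM in each of the 4 combinations, beside 9.96% (Mφ) and 13.3% (M2) of all genes in WT and 18.1% (Mφ) and 20.2% (M2) in TRAP1 KO cells. None was higher except H2-DMb2 in TRAP1 KO Mφ (1.16 CPM in control medium and 2.50 CPM in MPNST-CM, log2 fold change 1.09), a gene of low level named after its value was seen. Ciita, the master regulator of these genes, fell by 2.09 on the log2 scale in WT Mφ, from 11.97 ± 2.45 (SD, n = 3) to 2.80 ± 0.949 CPM (edgeR adjusted p = 5.47e-08), and by 3.96 in TRAP1 KO M2, from 67.0 ± 6.45 to 4.31 ± 0.708 CPM (edgeR adjusted p = 2.68e-15). H2-Aa, a chain of the class II molecule itself, fell by 1.28 in WT Mφ and by 1.93 in TRAP1 KO M2. In WT M2 against WT Mφ in control medium, 9 of the 10 genes were higher and 1 lower, beside 19.1% and 18.1% of all genes. Cd74, the invariant chain, led them with 2387 ± 70.9 against 220 ± 21.2 CPM (log2 fold change 3.44, edgeR adjusted p = 1.29e-18). There Tmem176b had 69.0 ± 5.26 and 68.8 ± 1.07 CPM. The same comparison in TRAP1 KO cells had 8 higher and 0 lower, beside 15.6% and 12.9% of all genes. In TRAP1 KO against WT Mφ 6 genes of the list were higher and 0 lower in control medium, with H2-Eb1 at 130.3 ± 13.1 against 65.3 ± 2.38 CPM (edgeR adjusted p = 1.8e-08), and 4 were higher and 0 lower in MPNST-CM, beside 8.64% and 7.97% and then 19.1% and 19.2% of all genes. In TRAP1 KO against WT M2 0 were higher and 3 lower in control medium, and 2 were higher and 6 lower in MPNST-CM, with Cd74 at 805 ± 91.5 against 1314 ± 136 CPM (log2 fold change -0.71, edgeR adjusted p = 5.77e-06), beside 8.56% and 7.87% and then 17.2% and 16.8% of all genes. The 5 dendritic cell markers summed to 5.42 to 19.6 CPM over all libraries. In TRAP1 KO M2 in MPNST-CM the sum was 16.9 to 19.6 CPM, with means of 8.74 CPM for Ccr7 and 7.02 CPM for Zbtb46 and 0 counts of Cd209a. The part of dendritic cells in the levels of the Tmem176 pair and of this list was not tested.

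Ms4a4a and Ms4a7 are the members best known from macrophages. Ms4a4a was highest in M2 macrophages in MPNST-CM. In WT M2 it was at 226, 192.5 and 180 CPM in control medium and at 776, 1073 and 987 CPM in MPNST-CM, and in TRAP1 KO M2 at 115, 146 and 114 CPM against 592, 632 and 526.5 CPM. The rise was 4.74-fold in WT and 4.66-fold in TRAP1 KO M2, with no overlap between media, and the KO libraries lay below the WT libraries in both media. In WT Mφ the means were 197 CPM in control medium and 216.5 CPM in MPNST-CM with overlapping libraries, and in TRAP1 KO Mφ 112.5, 149 and 156 CPM stood against 280, 370.5 and 382.5 CPM, a rise of 2.47-fold. TRAP1 KO cells therefore had less Ms4a4a than WT in 3 of the 4 combinations, by 1.42-fold to 1.62-fold, and 1.59-fold more in Mφ in MPNST-CM. The call in Mφ in control medium (log2 fold change -0.50) was lost without WT replicate 2 (-0.48), WT replicate 3 (-0.41) or KO replicate 1 (-0.37). M2 and Mφ in control medium overlapped in either genotype and gave no call.

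Ms4a7 varied least of all members, by 1.93-fold between the highest and lowest group mean. MPNST-CM went with lower levels in Mφ and higher levels in M2. In WT cells it was at 650.3, 623 and 664 CPM in Mφ in control medium and at 474.5, 490.5 and 449.6 CPM in MPNST-CM, against 507, 551 and 528 CPM and 849, 734 and 776 CPM in M2. In TRAP1 KO cells Mφ had 905.5, 935 and 886 CPM in control medium and 556.5, 585 and 617 CPM in MPNST-CM, and M2 had 575, 662 and 591 CPM and 793, 829 and 800.4 CPM. The libraries of the media did not overlap in any of these 4 pairs, with falls of 1.37-fold and 1.55-fold in Mφ and rises of 1.49-fold and 1.33-fold in M2 (WT and KO). TRAP1 KO Mφ in control medium formed the highest group, 1.41-fold above WT, and its difference from WT in M2 in MPNST-CM, 1.03-fold, was not called. In M2 in control medium TRAP1 KO cells were called 1.15-fold higher, and that call was lost without any of the 6 libraries in turn, with log2 fold changes of 0.12 to 0.22.

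**Figure D2:**
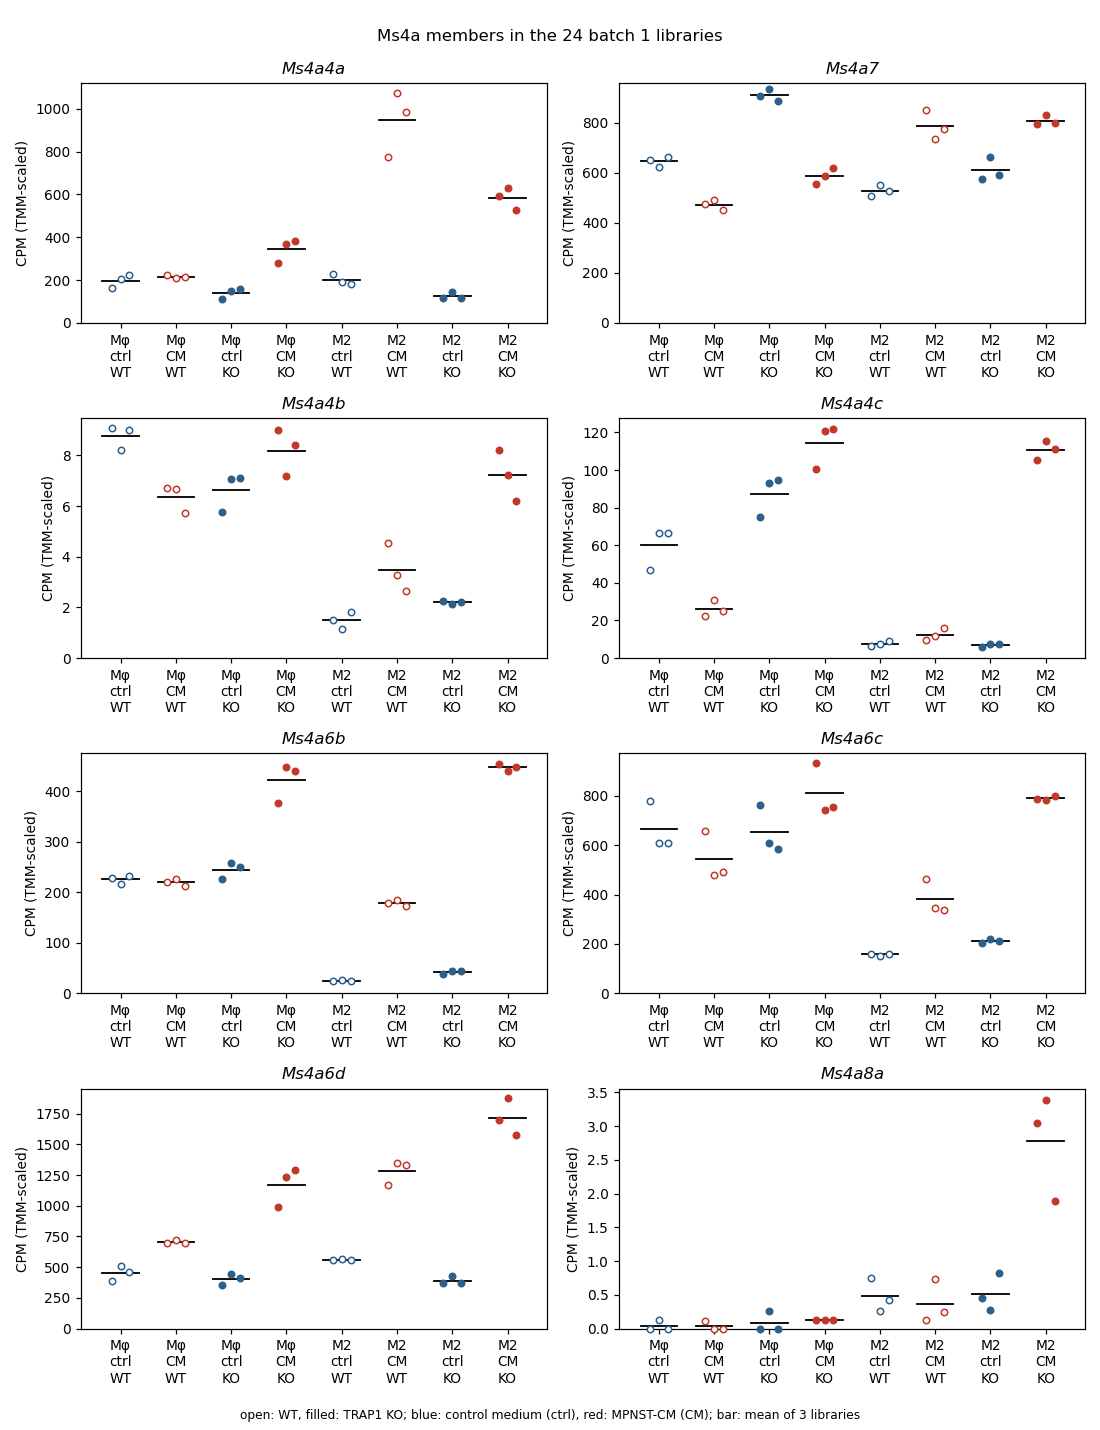
CPM of the 8 Ms4a members (linear axes from 0, a scale of its own for each gene) in each of the 24 batch 1 libraries by group, with open points for WT, filled points for TRAP1 KO, blue for control medium, red for MPNST-CM and a bar at the mean of 3 libraries. Ms4a4a is highest in WT M2 exposed to MPNST-CM (945 CPM), Ms4a6d and Ms4a6b in TRAP1 KO M2 in MPNST-CM (1718 and 448 CPM), and Ms4a4b, Ms4a4c, Ms4a6b and Ms4a6c are low in M2 in control medium.

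Ms4a4c and Ms4a4b, of which Ms4a4b is best known from T cells, were both lower in M2 than in Mφ in control medium. Ms4a4c in WT cells in control medium was at 47.1, 66.3 and 66.5 CPM in Mφ and at 6.31, 7.38 and 9.27 CPM in M2, 7.81-fold lower. In TRAP1 KO cells it was at 74.9, 92.9 and 94.6 CPM in Mφ and at 5.70, 7.50 and 7.72 CPM in M2, 12.5-fold lower. All M2 libraries in control medium were thus under 10 CPM. In MPNST-CM the genotypes parted: TRAP1 KO M2 had 105, 115 and 111 CPM of Ms4a4c against 9.68, 11.7 and 15.98 CPM in WT M2, 8.88-fold more, and TRAP1 KO Mφ had 101, 121 and 122 CPM against 22.1, 30.8 and 24.8 CPM in WT Mφ, 4.42-fold more. Within TRAP1 KO M2, MPNST-CM raised Ms4a4c 15.8-fold. WT cells went opposite ways, with Ms4a4c 2.32-fold lower in MPNST-CM in Mφ and 1.62-fold higher in M2, the second of which (log2 fold change 0.70) was lost as a call without control replicate 2 (0.63) or MPNST-CM replicate 3 (0.48). The smaller calls of Ms4a4c were also lost when single libraries were left out. The rise of 1.31-fold with MPNST-CM in TRAP1 KO Mφ was lost without any of 5 libraries in turn (control replicates 1, 2 and 3 and MPNST-CM replicates 2 and 3, log2 fold changes 0.29 to 0.45), and the excess of 1.46-fold in TRAP1 KO over WT Mφ in control medium without WT replicate 1 (0.40), KO replicate 2 (0.50) or KO replicate 3 (0.48).

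Ms4a4b stayed between 1.17 and 9.08 CPM, on 9 to 79 counts per library. It was at 9.08, 8.21 and 9 CPM in WT Mφ in control medium and at 1.502, 1.17 and 1.82 CPM in WT M2, 5.83-fold lower, and MPNST-CM raised it in M2 2.32-fold in WT and 3.26-fold in TRAP1 KO cells. Its differences between the genotypes were called only in M2 in MPNST-CM, with 8.20, 7.23 and 6.20 CPM in TRAP1 KO against 4.53, 3.29 and 2.64 CPM in WT. The counts of Ms4a4c were 3.18 to 6.89 times those of Ms4a4b as group means in 5 groups, and 13.2, 14.2 and 15.6 times in TRAP1 KO Mφ in control medium, TRAP1 KO Mφ in MPNST-CM and TRAP1 KO M2 in MPNST-CM. The 5 T cell markers summed to at most 6.79 CPM, and to 0.261 to 0.797 CPM in WT Mφ in control medium, where Cd3d and Cd3e had 0 counts. In M2 most of that sum was Cd2, with a mean of 4.70 CPM in WT M2 in control medium, and Cd3d, Cd3e and Cd3g had at most 3 counts in any library. The part of T cells in the level of Ms4a4b was not tested.

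Ms4a6b, Ms4a6c and Ms4a6d are the remaining abundant members. Ms4a6b had the widest range among the abundant Ms4a members, 18.1-fold. IL-4 in control medium went with 9.12-fold less Ms4a6b in WT (229, 217 and 232 CPM in Mφ against 23.4, 25.5 and 25.3 CPM in M2) and 5.77-fold less in TRAP1 KO cells (227, 258 and 249.6 CPM against 39.2, 44.3 and 43.6 CPM). With MPNST-CM the M2 libraries rose to 179.4, 185 and 172 CPM in WT, 7.22-fold, and to 454, 440.4 and 449 CPM in TRAP1 KO cells, 10.6-fold. In Mφ, WT cells had 220.1, 227 and 212 CPM in MPNST-CM and overlapped the control libraries, while TRAP1 KO cells had 377, 449 and 440.4 CPM, 1.73-fold above their control. In MPNST-CM the M2 and Mφ libraries of TRAP1 KO cells overlapped, and the difference by IL-4 seen in control medium was not called there. TRAP1 KO exceeded WT 2.50-fold in M2 and 1.92-fold in Mφ in MPNST-CM.

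Ms4a6c followed the same pattern in a narrower range of 5.14-fold. Its group means were 665 and 652 CPM in WT and TRAP1 KO Mφ in control medium, 158 and 213 CPM in M2 in control medium, 382 and 790.3 CPM in M2 in MPNST-CM, and 542 and 810 CPM in Mφ in MPNST-CM. M2 cells thus lay 4.22-fold below Mφ in WT and 3.07-fold below in TRAP1 KO in control medium, and MPNST-CM raised M2 cells 2.42-fold and 3.72-fold. In Mφ neither genotype had a call between the media in the main fit. Each genotype gained one with a block for the replicate number, and also with no filter on low counts. Replicate 1 was the highest library in every Mφ group. WT Mφ also gained a call without MPNST-CM replicate 1 (log2 fold change -0.46 in place of -0.29). TRAP1 KO Mφ gained one without control replicate 1 (0.44 in place of 0.31). The higher level of TRAP1 KO than WT M2 in control medium, 1.35-fold, was lost as a call without any of 5 libraries in turn (WT replicates 2, 3 and 4 and KO replicates 2 and 3, log2 fold changes 0.39 to 0.43), whereas the differences in MPNST-CM, 1.49-fold in Mφ and 2.07-fold in M2, stayed calls without any 1 library. The 1.42-fold lower level in WT M2 than in WT Mφ in MPNST-CM (-0.50) was lost without Mφ replicate 1 (-0.34).

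Ms4a6d, the member with the highest mean (836 CPM over 24 libraries), rose with MPNST-CM in all 4 combinations. It was at 391, 507 and 463 CPM in WT Mφ in control medium and at 694, 721 and 697 CPM in MPNST-CM, 1.55-fold more, and at 351, 444 and 410 CPM against 993, 1236 and 1290 CPM in TRAP1 KO Mφ, 2.92-fold more. In M2 it went from 556.5, 567 and 558.5 CPM to 1167, 1352 and 1333 CPM in WT, 2.29-fold, and from 372, 429.8 and 370.3 CPM to 1696, 1879 and 1580 CPM in TRAP1 KO cells, 4.40-fold. No library in control medium reached any library in MPNST-CM of the same genotype and state. TRAP1 KO cells had 1.44-fold less Ms4a6d than WT in M2 in control medium and more in MPNST-CM, 1.67-fold in Mφ and 1.34-fold in M2, the latter (log2 fold change 0.42) lost as a call without WT replicate 1 (0.28). Unlike Ms4a6b and Ms4a6c, it was not lower with IL-4 in control medium: M2 had 1.24-fold more than Mφ in WT, a call lost without any of 4 libraries in turn (Mφ replicate 1 and M2 replicates 2, 3 and 4, log2 fold changes 0.21 to 0.30), and 0.973 times the level of Mφ in TRAP1 KO cells, with overlapping libraries.

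The 4 monocyte markers were all detected in all groups. Their sum was 366 to 376 CPM in WT Mφ in control medium, 115 to 137 in WT Mφ in MPNST-CM, 191 to 214 in TRAP1 KO Mφ in control medium and 372 to 413 in TRAP1 KO Mφ in MPNST-CM. In M2 it was 271 to 279 and 75.4 to 117 CPM in WT and 198 to 241 and 69.0 to 79.4 CPM in TRAP1 KO cells, in control medium and MPNST-CM. The groups with the highest means of Ms4a4c were TRAP1 KO Mφ (114 CPM) and TRAP1 KO M2 (111 CPM), both in MPNST-CM. The part of monocytes in the levels of the members was not tested.

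Ms4a8a was under 3 counts in 16 of the 24 libraries, and it passed the filter on low counts through a single group. The counts were 23, 30 and 15 in TRAP1 KO M2 in MPNST-CM (3.04, 3.39 and 1.90 CPM), 3, 2 and 6 in TRAP1 KO M2 in control medium, 5, 2 and 3 in WT M2 in control medium and 1, 6 and 2 in WT M2 in MPNST-CM. None of the 12 Mφ libraries had more than 2 counts. The highest group therefore did not overlap any other. The other M2 groups stood above the Mφ group of the same genotype and medium in CPM, on at most 6 counts. In control medium WT M2 was called higher than WT Mφ. That call was lost without Mφ replicate 1 or 3, without M2 replicate 2, or with a block for the replicate number. The remaining levels were thus poorly separated at this depth. No fold change is given for Ms4a8a against Mφ.

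Of 13 other Ms4a genes in the table, 8 stayed under 3 counts in all 24 libraries. Ms4a1 (at most 3 counts), Ms4a3 (4), Ms4a2 (6) and Ms4a4d (6) reached the floor in 1 to 7 libraries, Ms4a1 being the gene of CD20 and Ms4a2 that of the IgE receptor beta chain. Ms4a14 alone could be tested. It was at 52.6 ± 2.17 (SD, n = 3) CPM in WT Mφ and 18.5 ± 1.72 CPM in WT M2 in control medium (log2 fold change -1.51, edgeR adjusted p = 2.61e-11), and MPNST-CM raised it in M2 to 41.2 ± 6.21 CPM in WT (edgeR adjusted p = 1.21e-08) and from 27.3 ± 1.96 to 57.8 ± 1.62 CPM in TRAP1 KO cells (edgeR adjusted p = 6.59e-09). In Mφ it was lower in MPNST-CM, at 35.3 ± 2.82 CPM in WT and 41.97 ± 2.08 CPM in TRAP1 KO cells.

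The summed level of the 8 Ms4a members was 2257 ± 18.6 CPM (SD, n = 3) in WT Mφ in control medium and 2187 ± 104 in MPNST-CM, and 2440 ± 54.0 and 3458 ± 188 CPM in TRAP1 KO Mφ. In M2 it went from 1480 ± 17 to 3593 ± 132 CPM in WT and from 1390 ± 107 to 4468 ± 207 CPM in TRAP1 KO cells. The makeup of the sum also differed between groups. Ms4a6d took 20.1% of the Ms4a member counts in WT Mφ in control medium and 38.4% in TRAP1 KO M2 in MPNST-CM, Ms4a4a took 26.2% in WT M2 with MPNST-CM and 5.71% in TRAP1 KO Mφ in control medium, and Ms4a7 took 43.8% in TRAP1 KO M2 in control medium and 17% in TRAP1 KO Mφ in MPNST-CM.

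**Figure D3:**
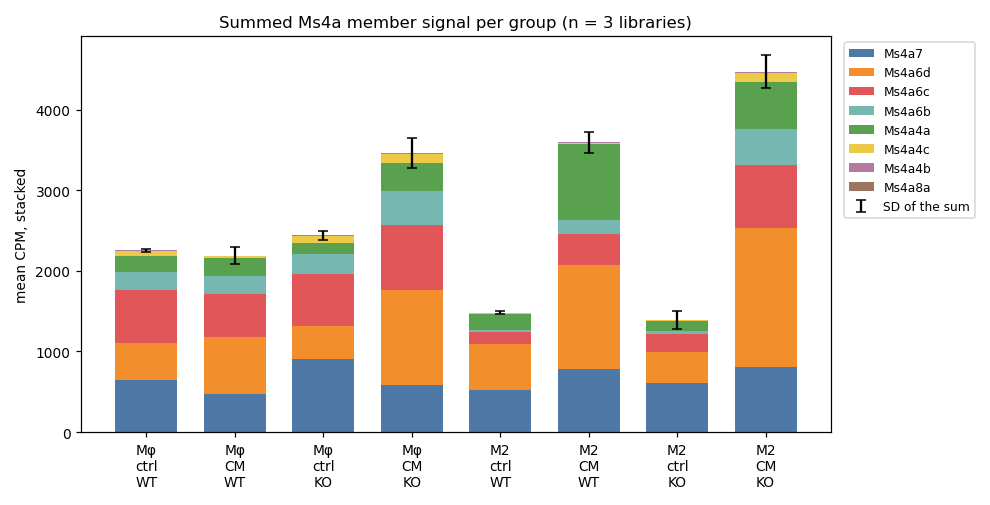
Mean CPM of the 8 Ms4a members stacked by gene in each group (bars from 0), with the SD of the sum over 3 libraries as an error bar. The sum is lowest in M2 in control medium, 1480 CPM in WT and 1390 CPM in TRAP1 KO cells, and highest in TRAP1 KO M2 in MPNST-CM, 4468 CPM.

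Read over all 10 members, the calls were spread as follows, each beside the share of all 13614 genes called the same way. Since the members were chosen by their levels in these groups, nothing is read from these counts. Ms4a8a, which was tested only because its level in TRAP1 KO M2 in MPNST-CM admitted it, is among the members counted as higher in 4 of these comparisons, namely MPNST-CM in TRAP1 KO M2, TRAP1 KO against WT in M2 in MPNST-CM, and M2 against Mφ in WT in control medium and in TRAP1 KO in MPNST-CM. With MPNST-CM, 1 member was higher and 4 lower in WT Mφ (11.3% and 9.96% of all genes), 7 and 2 in WT M2 (11.2% and 13.3%), 4 and 3 in TRAP1 KO Mφ (14.8% and 18.1%) and 8 and 2 in TRAP1 KO M2 (16.7% and 20.2%). The median log2 fold change of the members was -0.37, 0.95, 0.35 and 2.02 in that order, against -0.02, -0.03, -0.04 and -0.01 over all genes. These pairs of comparisons by genotype and by medium share their libraries. In TRAP1 KO against WT, 4 members were higher and 1 lower in Mφ in control medium (8.64% and 7.97% of all genes), 6 and 2 in Mφ in MPNST-CM (19.1% and 19.2%), 3 and 2 in M2 in control medium (8.56% and 7.87%) and 6 and 2 in M2 in MPNST-CM (17.2% and 16.8%). In M2 against Mφ, 2 were higher and 5 lower in WT in control medium (19.1% and 18.1%), 0 and 7 in TRAP1 KO in control medium (15.6% and 12.9%), 3 and 5 in WT in MPNST-CM (11.9% and 13%) and 4 and 1 in TRAP1 KO in MPNST-CM (6.71% and 4.47%).

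The same fit gave interaction terms, which compare 2 such differences. They are drawn from the levels on which the members were selected, so that the counts are a description as well. For MPNST-CM by genotype 8 members were called in Mφ and 6 in M2, Ms4a8a among the latter, beside 19.7% and 20.2% of all genes. For MPNST-CM by IL-4 in WT cells 7 members were called, beside 12.1% of all genes, and for IL-4 by genotype in control medium 3, beside 7.08%.

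**Figure D4:**
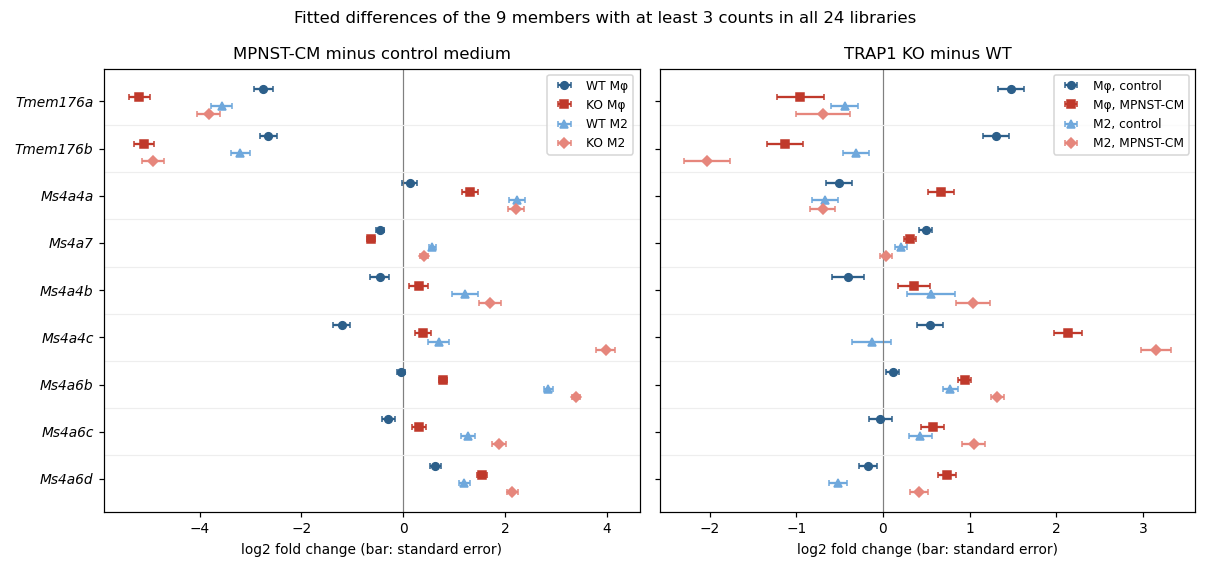
Fitted log2 fold changes with standard errors of the 9 members that had at least 3 counts in all 24 libraries, for MPNST-CM against control medium (left) and TRAP1 KO against WT (right). Tmem176a and Tmem176b lie between -2.65 and -5.19 in all 4 comparisons of media, and Ms4a4c ranges from -1.21 in WT Mφ to 3.98 in TRAP1 KO M2.

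Proteins described to act with the members, or in the same steps, were read as a list of 12 genes, also chosen with results of these data known. The adjusted p-values printed for these genes are a description as well. Clec7a, which encodes Dectin-1, fell with MPNST-CM in all 4 combinations, while Ms4a4a rose in 3 of them. It was at 170 ± 7.02 (SD, n = 3) and 57.0 ± 3.02 CPM in WT Mφ (edgeR adjusted p = 2.32e-13), at 1393 ± 22.9 and 522.5 ± 62.0 CPM in WT M2 (edgeR adjusted p = 3.5e-13), and at 957 ± 66.4 and 128 ± 1.64 CPM in TRAP1 KO M2 (edgeR adjusted p = 1.25e-19), in control medium and MPNST-CM. Trem2, a lipid-sensing receptor of macrophages, fell in the same 4 comparisons, from 921 ± 36.9 to 540.4 ± 6.28 CPM in WT M2 (edgeR adjusted p = 4.05e-09). Of the 11 genes tested, 1 was higher and 2 lower for MPNST-CM in Mφ of WT, beside 11.3% and 9.96% of all genes, and 3 and 4 in Mφ of TRAP1 KO, beside 14.8% and 18.1%. In M2 the counts were 2 and 7 in WT, beside 11.2% and 13.3%, and 3 and 6 in TRAP1 KO cells, beside 16.7% and 20.2%. Among the inflammasome genes, Il1b, the cytokine that inflammasomes mature, rose in TRAP1 KO Mφ from 3.92 ± 0.145 to 43.5 ± 4.82 CPM (edgeR adjusted p = 1.35e-14), Nlrp3, a sensor, rose in TRAP1 KO M2 from 14.5 ± 3.67 to 41.9 ± 2.87 CPM (edgeR adjusted p = 4.45e-07), and Pycard, the adaptor, fell in WT M2 from 193 ± 10.4 to 112 ± 4.80 CPM (edgeR adjusted p = 6.86e-10). Il18, another cytokine that inflammasomes mature, rose in TRAP1 KO M2 from 6.88 ± 1.19 to 31.1 ± 2.31 CPM (edgeR adjusted p = 1.32e-10). Il18 was also higher in TRAP1 KO Mφ (20.6 to 47.1 CPM) and had no call in WT cells. Il1b was also higher in WT Mφ (4.90 to 12.9 CPM), WT M2 (11 to 26.5 CPM) and TRAP1 KO M2 (4.86 to 35.7 CPM). Nlrp3 was also higher in WT M2 (19.1 to 31.4 CPM) and TRAP1 KO Mφ (37.6 to 62.9 CPM), and had no call in WT Mφ. Pycard was also lower in TRAP1 KO Mφ and M2. Casp1 was called only in WT M2 and Gsdmd only in TRAP1 KO Mφ, each of them lower. Vsig4, a complement receptor, was under 0.4 CPM as a mean in every group and was not tested.

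Genes most like Tmem176b by Pearson correlation of log2 CPM over the 24 libraries, among 8197 genes compared, were Tpcn1 (0.953), Lpar5 (0.938), Tmem51 (0.936), Enc1 (0.934) and Mtmr14 (0.934). Tpcn1 encodes an endolysosomal cation channel and had 196 CPM in TRAP1 KO Mφ in control medium and 65.1 CPM in TRAP1 KO M2 in MPNST-CM, a narrower range than Tmem176b. Etv1 (-0.958), Serpinb8 (-0.958) and Vcan (-0.952) were the most opposite. Those most like Ms4a6d were Crem (0.975), Mrc1 (0.974), Ptprf (0.960), Abcb1a (0.945) and Il1b (0.945). Mrc1, the mannose receptor CD206, went from 558 to 3514 CPM in TRAP1 KO M2 between the media and from 733 to 1281 CPM in WT Mφ. Lpar5 was near Tmem176b and opposite to Ms4a6d (-0.945). These correlations run over libraries that share groups and are a description. Among the members themselves, Ms4a6d had a correlation of -0.928 with Tmem176b, 0.911 with Ms4a4a and 0.373 with Ms4a6c, whereas Ms4a6c stood at 0.962 with Ms4a6b and 0.960 with Ms4a4b.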

How the data were processed

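Libraries were made from polyA RNA with a QuantSeq 3′ kit, which reads the 3′ end of each transcript, and sequenced as single reads of 75 bases. The authors deposited raw counts per gene; per the labels, Trimmomatic, FastQC, HISAT2, SAMtools and featureCounts were used, with the genome build named mm39 in the labels and mm10 in the methods. Of the 32 count columns, 27 matched a sample and 5 were not used. Counts were analysed in R 4.3.3 with edgeR 4.0.16 and limma 3.58.1: genes were filtered by filterByExpr, scaled by TMM and fitted by quasi-likelihood with all 8 groups of the 24 batch 1 libraries, and p-values were adjusted by the Benjamini-Hochberg method over 13614 genes, with a threshold of 0.05. The script was tested on simulated data. Log2 CPM for correlations used a prior count of 2.

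The members and the gene lists were chosen with earlier results of these data known. All members are named; of each list, per comparison, at most the 4 called genes that changed most, if 10 CPM or more were reached in a group; and the 5 genes most like the most abundant Tmem176 and Ms4a member. The 3 most opposite genes, and further results of the inflammasome genes between media, were added. Alternatives were DESeq2 1.42.0, RLE size factors, no filter, all 27 libraries with or without batch as a covariate, a fit of the compared groups alone, a block for the replicate number, a log2 fold change of at least 1, and leaving out each library.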

Additional observations from a re-analysis of the deposited data

Results flagged for a closer look

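The following differences between responses came from interaction terms of the edgeR fit and are log2 values with standard errors; the members were chosen by levels that enter them, so they are a description. The response to MPNST-CM was more negative in TRAP1 KO than in WT Mφ for Tmem176a (-2.44 ± 0.311) and Tmem176b (-2.43 ± 0.255), and more positive for Ms4a4a (1.17 ± 0.211), Ms4a4b (0.763 ± 0.262), Ms4a4c (1.60 ± 0.219), Ms4a6b (0.828 ± 0.107), Ms4a6c (0.607 ± 0.187) and Ms4a6d (0.912 ± 0.148). The calls of Ms4a4b and Ms4a6c there were lost without any of 9 and 6 libraries in turn, with values of 0.668 to 0.814 and 0.48 to 0.561. In M2 macrophages the same difference was -1.72 ± 0.308 for Tmem176b, 3.28 ± 0.279 for Ms4a4c, 0.548 ± 0.115 for Ms4a6b, 0.616 ± 0.190 for Ms4a6c and 0.942 ± 0.147 for Ms4a6d. Ms4a6c lost that call without WT MPNST-CM replicate 2 (0.55) or 3 (0.537). Ms4a8a had a value of 2.72 ± 0.973 there, which is no test, since the gene passed the filter on low counts through TRAP1 KO M2 in MPNST-CM alone; its call held under 4 of 19 alternatives, and not with DESeq2, RLE size factors, no filter or the replicate block, nor without any of 9 libraries in turn (2.23 to 2.99).

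In WT cells the response to MPNST-CM was more positive in M2 than in Mφ for Ms4a4a (2.11 ± 0.211), Ms4a4b (1.68 ± 0.313), Ms4a4c (1.91 ± 0.257), Ms4a6b (2.89 ± 0.113), Ms4a6c (1.57 ± 0.190), Ms4a6d (0.561 ± 0.147) and Ms4a7 (1.03 ± 0.101). In control medium the difference between M2 and Mφ was more negative in TRAP1 KO than in WT cells for Tmem176a (-1.92 ± 0.216) and Tmem176b (-1.62 ± 0.212), and less negative for Ms4a6b (0.661 ± 0.114).

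Each batch 2 library is the only one of its labelled group in that batch, and it stood apart from the 3 batch 1 libraries of that group by Dixon's test for 16 pairs of member and library. Chance alone marks about 1 in 20 groups, and batch and library cannot be told apart here. The library labelled WT Mφ in control medium had 10.1 CPM of Tmem176a, 59.1 CPM of Tmem176b and 133 CPM of Ms4a6b. The library labelled TRAP1 KO M2 in MPNST-CM had 10.6 CPM of Tmem176a, 60.9 CPM of Tmem176b, 9.34 CPM of Ms4a4c, 46.6 CPM of Ms4a6b, 246 CPM of Ms4a6c and 480 CPM of Ms4a7. The library labelled TRAP1 KO M2 in control medium had 1.63 CPM of Tmem176a, 4.40 CPM of Tmem176b, 5.17 CPM of Ms4a4b, 282 CPM of Ms4a4c, 398 CPM of Ms4a6b, 610 CPM of Ms4a6c and 1160 CPM of Ms4a6d. For Tmem176b the labels thus gave 60.9 CPM where the 3 batch 1 libraries of that group had 1.24 to 2.78 CPM, and 4.40 CPM where they had 51.6 to 58.8 CPM. Xist had 2962 and 4220 counts in these TRAP1 KO libraries, and Trap1 had 0 and 2. Retnla, an IL-4 marker, had 23.8 CPM in the library labelled TRAP1 KO M2 in control medium, against 1763 to 2074 CPM in batch 1. In the library labelled TRAP1 KO M2 in MPNST-CM, Retnla had 4554 CPM against 213.8 to 236.1 CPM in batch 1. Mrc1 had 710 CPM there, against 3289 to 3769 CPM. The labels were kept as given, and their correctness was not tested.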

How the results depend on the processing

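Counts of members called moved most when the batch 2 libraries entered, 2 of which are nearest to groups other than the labelled ones. With all 27 libraries, calls with MPNST-CM went from 5 to 1 member in WT Mφ, 9 to 5 in WT M2 and 10 to 4 in TRAP1 KO M2; calls for TRAP1 KO against WT from 5 to 1, 8 to 0, 5 to 1 and 8 to 1 in Mφ in control medium, Mφ in MPNST-CM, M2 in control medium and M2 in MPNST-CM; and calls for M2 against Mφ from 7 to 4, 7 to 3, 8 to 2 and 5 to 1 in WT control, TRAP1 KO control, WT MPNST-CM and TRAP1 KO MPNST-CM. Interactions went from 8, 6, 7 and 3 to 0, 0, 1 and 0. With batch as a covariate the counts were 2 (WT Mφ) and 4 (TRAP1 KO M2) for MPNST-CM, 1, 1, 0 and 1 for genotype, 3, 2 and 2 for M2 against Mφ other than in WT control medium, and 0, 0, 2 and 0 for the interactions. In these fits the log2 fold change of Ms4a6d in TRAP1 KO against WT M2 in control medium turned from -0.52 to 0.0478 and, with the covariate, 0.0465. That of Tmem176b turned from -2.03 to 1.12 in M2 in MPNST-CM by genotype, and from -1.45 to 1.74 and, with the covariate, 0.603 in TRAP1 KO M2 against Mφ in MPNST-CM. Asking for a log2 fold change of at least 1 left 3 members in WT Mφ and 4 in TRAP1 KO Mφ for MPNST-CM, 2, 2 and 0 for genotype in Mφ control, Mφ MPNST-CM and M2 control, 2 and 2 for M2 against Mφ in MPNST-CM, and 4 and 3 for genotype by medium. The compared groups alone gave 5 for M2 against Mφ in WT cells in MPNST-CM, and no filter gave 5 for genotype by IL-4. Leaving out a library moved genotype in M2 in control medium from 5 to between 3 and 4, 3 without WT replicate 2 or 3 or KO replicate 2 or 3. DESeq2 and RLE size factors kept every count within 1.5 times. The cause was not tested.

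The main fit did not pair the samples by replicate number. Deviations of 77 same-numbered pairs correlated at -0.214 to 0.521 (mean 0.107, against -0.0451 for other pairs), with 34 pairs over 0.1. These values do not settle whether the numbers mark a pairing. With the replicate block the counts were 6, 9, 8 and 10 for MPNST-CM, 5, 8, 5 and 8 for genotype, 6, 7, 7 and 5 for M2 against Mφ, and 8, 5, 7 and 3 for the interactions. Depth limits Ms4a8a and, in MPNST-CM, Tmem176a.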
